A study of Bos taurus with 13 samples.

Results

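Solute carriers are membrane proteins that move small molecules across the plasma membrane or the membranes of organelles. 6 solute carrier genes on a bovine mammary cDNA microarray are described here, matched by gene symbol and covering 5 kinds of cargo: SLC1A5 and SLC3A2 for amino acids, SLC39A8 for metals, SLC22A4 for carnitine and related cations, SLC28A1 for nucleosides and SLC37A3 for sugar phosphates. The 6 genes were chosen with earlier results of these data known. Each was printed as 1 cDNA clone in 3 spots, 18 of the 3888 spots and 6 of the 1179 features kept, where a feature is the mean of all spots of a clone's sequence. The platform annotation named 16 solute carrier genes among the 703 genes measured, so 10 others served for comparison.

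The series held 13 hybridisations of total RNA, each with 2 channels. 8 arrays set 1 bovine tissue each against the reference cell line BovMac: ileum, spleen, thymus, lymph tissue, liver, adrenal tissue, adipose tissue and the mammary gland of a prepubertal Holstein heifer of 136 kg. 2 arrays set lactating mammary gland against prepubertal gland, from a heifer of 136 kg on array 1 and of 227 kg on array 2. 1 array held the gland of a postpubertal Holstein heifer of 310 kg with that of a prepubertal heifer of 136 kg, and 2 arrays held the reference line in both channels. 1 of those is labelled BovMav in place of BovMac, and a keyword of lactating array 2 names postpubertal gland, against its title and channel, which were followed. No genotype, treatment or age is given beyond this, and no label says how many animals stand behind a tissue or whether the lactating RNA was shared by its arrays. The p-values therefore rest on the spread between 2 arrays, largely pooled over features. That spread may be technical in part, and it also takes in 2 prepubertal heifers of different weight. In whole tissue, fewer cells of a type and less RNA per cell cannot be told apart.

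The lists set up to check the labelled tissues were thin on this array. 0 genes of the adipocyte, adrenal, thymocyte and macrophage lists were measured, and the ileum epithelium list held EPCAM alone. The hepatocyte list had 3 measured genes, which lay on both sides in liver, with C3 at -1.10, A2M at -0.27 and the 2 features of FGG at 0.25 and 0.16. The leukocyte list had 5. Values are log ratios whose base is not stated, centred on each array's median. The dyes and the order of the channels are not stated either, so on the tissue arrays a positive or negative value names a side and not a direction of expression. Positive values on the lactating arrays are said to lie on the casein side, because 7 of 8 features of milk secretion genes lay there and 3 of them, of CSN1S1, CSN2 and PAEP, passed the test described below. It is likely the side of lactating gland, whose RNA was in channel 1. Should the tissue arrays share that order of channels, a positive tissue value would be the side of the reference line, whose RNA was in channel 1 there. The markers did not settle this, since EPCAM lay at 1.94 in ileum and C3 at -1.10 in liver. Both also left 0 on an array with the reference line in both channels. EPCAM lay at -0.05 on array 1 of those and 1.51 on array 2, and C3 at -0.88 on array 1, without a value on array 2. Pearson's r between tissue arrays across features ran from -0.24 (adrenal tissue and liver) to 0.67 (lymph tissue and spleen).

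SLC1A5 exchanges neutral amino acids, glutamine above all, in a manner that needs sodium, and SLC3A2 is the heavy chain that carries several amino acid exchangers of the SLC7 family to the cell surface. SLC39A8 imports zinc and manganese. SLC22A4 moves organic cations, and in human cells ergothioneine is its best known substrate beside carnitine. SLC28A1 takes up pyrimidine nucleosides together with sodium. SLC37A3 belongs to a family named for sugar phosphate exchange, and its own cargo is less settled. In the lactating gland amino acid carriers supply the synthesis of milk protein, and the epithelium of the ileum is rich in carriers for absorption.

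Between tissues, the widest departures among the 6 genes were those of SLC22A4 in mammary gland, of SLC1A5 and SLC3A2 in ileum, of SLC39A8 in thymus, of SLC37A3 in spleen and of SLC28A1 in mammary gland, the last with spots that disagreed. With 1 array per tissue no test of these differences was possible, and errors are SDs over the 3 spots of the clone. 1 of the 6 genes, SLC22A4, lay 1 log unit or more from 0 on the mammary array, where 1.02% of all features did. 0 of 6 did so on the ileum array (8.4% of features) and 0 of 6 on each of the other tissue arrays (0.171% to 0.426%). On the arrays of reference against itself the same share was 1.72% for array 1 and 4.32% for array 2, with 0 of 6 and 0 of 5 of these genes. The spots of a clone hardly agreed on array 2, with a mean Spearman rho of 0.12. That rho was 0.57 on array 1 and 0.53 to 0.85 on the tissue arrays.

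**Figure D1:**
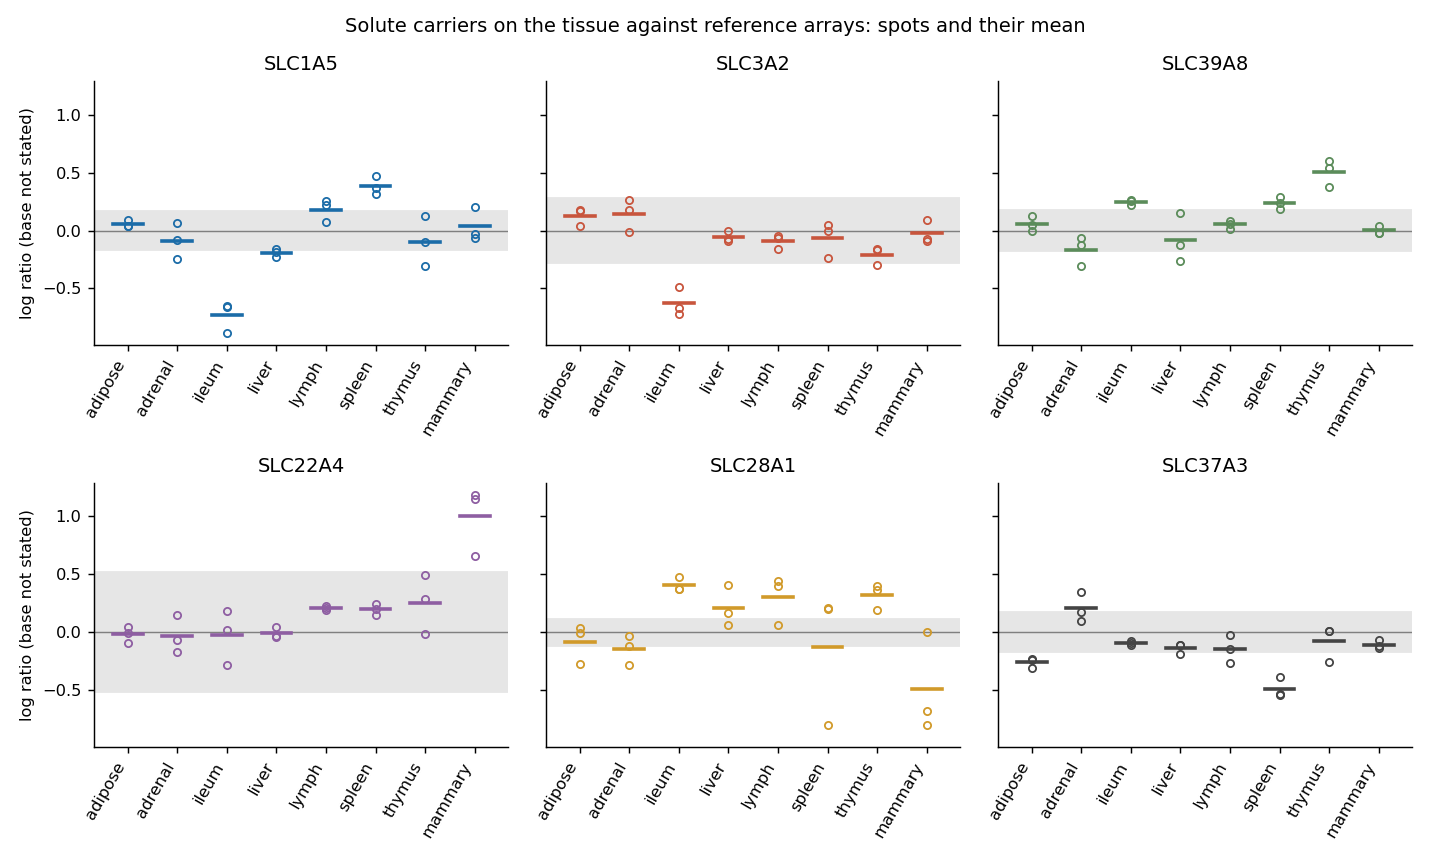
Log ratio (base not stated) of each solute carrier on the 8 tissue against reference arrays. Open circles are spots, bars are the mean of the 3 spots, and the grey band reaches as far from 0 as the larger of the gene's values on the reference against reference arrays (array 1 alone for SLC39A8). SLC1A5 (-0.73) and SLC3A2 (-0.63) lie below their bands in ileum, and SLC22A4 (1.00) lies above its band in mammary gland. The spots of a clone hardly agreed on array 2 of the reference against reference arrays (mean Spearman rho 0.12).

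The amino acid carriers SLC1A5 and SLC3A2 both had their most negative value in ileum. The 3 spots of SLC1A5 read -0.89, -0.66 and -0.65 there, with a mean of -0.73 ± 0.13 (SD, 3 spots). Its other tissues lay at -0.19 ± 0.03 in liver, -0.09 ± 0.22 in thymus, -0.09 ± 0.16 in adrenal tissue, 0.04 ± 0.15 in mammary gland, 0.06 ± 0.03 in adipose tissue, 0.18 ± 0.10 in lymph tissue and 0.38 ± 0.08 in spleen. Ileum thus stood 0.54 units below liver, the next tissue, and no spot of SLC1A5 in ileum overlapped a spot of any other tissue. At the other end spleen stood 0.20 above lymph tissue, with spots at 0.31, 0.47 and 0.36 against 0.26, 0.22 and 0.07, also without overlap. The 4 tissues from liver to mammary gland followed each other by less than the larger SD of the neighbours, as did mammary gland and adipose tissue. On reference against reference arrays 1 and 2 the clone read -0.04 ± 0.17 and -0.17 ± 0.30.

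SLC3A2 read -0.49, -0.72 and -0.67 in ileum, a mean of -0.63 ± 0.12. It lay at -0.21 ± 0.08 in thymus, -0.09 ± 0.06 in lymph tissue, -0.06 ± 0.15 in spleen, -0.06 ± 0.05 in liver, -0.02 ± 0.10 in mammary gland, 0.13 ± 0.08 in adipose tissue and 0.15 ± 0.14 in adrenal tissue. On reference against reference arrays 1 and 2 the same clone read 0.07 ± 0.08 and 0.28 ± 0.08. Ileum was the 1 tissue that lay farther from 0 than both. The gap of 0.42 between ileum and thymus exceeded the SD over spots, and the tissues from lymph tissue to mammary gland could not be ordered by it. So the heavy chain gene and the glutamine exchanger gene shared ileum as their extreme, but not the order of the rest. Across the 8 tissue arrays Pearson's r between them was 0.72, and -0.07 over the 7 arrays without ileum.

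The ileum array was the widest of the tissue arrays, and genes of amino acid use lay on both sides of it. The SD over all features was 0.56 in ileum and 0.16 to 0.27 on the other tissue arrays, and ileum held the most negative value of 325 of 1154 features (28.2%). SLC1A5 ranked 109 and SLC3A2 136 from the most negative of 1167 features there. On arrays scaled to the same median absolute deviation (MAD) ileum remained the most negative tissue of both, at -0.50 for SLC1A5 and -0.42 for SLC3A2. Of 11 features for amino acid use, 7 were negative in ileum, where 594 of all 1167 features were, with a median of -0.21 against -0.01 over all features. The values ran from GLUL, which encodes glutamine synthetase, at -0.62 to the glutaminyl-tRNA synthetase gene QARS1 at 0.45, and these ends were named after their values were seen. On reference against reference arrays 1 and 2 QARS1 lay at -0.08 and 1.29, and GLUL at -0.13 and -0.29. All 5 leukocyte features were positive in ileum, where 573 of all 1167 features were. All 5 were also most positive there among the tissues, as were 251 of 1154 features (21.8%). They ran from LCP1 at 0.10 to BOLA-DRB3 at 3.17, with a median of 0.85, and the epithelial gene EPCAM lay at 1.94. The amino acid carriers thus had their extreme on the array where the leukocyte and epithelial genes had theirs, on the other side. The part of the width of the ileum array, or of those genes, in the values of SLC1A5 and SLC3A2 was not tested. None of the heavy chain's light-chain or integrin partners listed (among them SLC7A5 and SLC7A11) was among the features kept.

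The metal importer SLC39A8 was set apart by thymus. Its thymus spots read 0.38, 0.54 and 0.60, with a mean of 0.51 ± 0.12, rank 31 from the most positive of 1176 features. The other tissues lay at 0.24 ± 0.02 in ileum, 0.24 ± 0.05 in spleen, 0.06 ± 0.06 in adipose tissue, 0.05 ± 0.03 in lymph tissue, 0.00 ± 0.04 in mammary gland, -0.08 ± 0.21 in liver and -0.16 ± 0.12 in adrenal tissue. Thymus stood 0.26 above ileum without overlap of spots, ileum and spleen could not be ordered, and both stood above adipose tissue by more than the SD over spots. On reference against reference array 1 the gene was at -0.17 ± 0.31, a spread over spots wider than on any tissue array. On array 2 of those a single spot gave a ratio, at -1.07, which is too few for a value.

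SLC22A4 had the largest positive value of the 6 genes in any tissue, in mammary gland. The spots read 0.66, 1.15 and 1.19 in mammary gland, with a mean of 1.00 ± 0.29, rank 9 from the most positive of 1176 features on that array. Without centring the mean was 0.97. The gene lay at 0.26 ± 0.25 in thymus, 0.21 ± 0.02 in lymph tissue, 0.20 ± 0.05 in spleen, -0.01 ± 0.05 in liver, -0.02 ± 0.07 in adipose tissue, -0.03 ± 0.24 in ileum and -0.03 ± 0.16 in adrenal tissue. 2 steps therefore exceeded the SD over spots, 0.74 from mammary gland down to thymus and 0.21 from spleen down to liver. Within the upper 3 lymphoid organs and within the lower 4 tissues the neighbours did not differ beyond it. All 3 mammary spots were above every spot of the other tissues. On the reference against reference arrays the same clone read 0.16 ± 0.30 and -0.52 ± 0.33, values this clone gave with the same line in both channels.

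SLC28A1, the pyrimidine nucleoside carrier, had spots that disagreed in mammary gland and in spleen. In mammary gland they read 0.01, -0.68 and -0.80, a mean of -0.49 ± 0.44, and in spleen 0.20, 0.21 and -0.80, a mean of -0.13 ± 0.58. The gene was at -0.14 ± 0.13 in adrenal tissue, -0.08 ± 0.17 in adipose tissue, 0.21 ± 0.18 in liver, 0.30 ± 0.21 in lymph tissue, 0.32 ± 0.11 in thymus and 0.41 ± 0.06 in ileum. Of 7 steps between neighbours only that from adipose tissue to liver (0.29) exceeded the larger SD. Ileum, thymus, lymph tissue and liver thus lay above adipose and adrenal tissue by their means, whereas spleen, with 2 spots among theirs and an SD of 0.58, could not be placed against them. The place of mammary gland as most negative was not resolved by the spots. Both control arrays were quiet for this clone, at -0.12 ± 0.11 and 0.05 ± 0.04.

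SLC37A3 was negative in 7 of the 8 tissues and positive in adrenal tissue. The adrenal spots read 0.35, 0.18 and 0.10, a mean of 0.21 ± 0.13 and rank 69 from the most positive of 1176 features. Spleen was at the other end with -0.39, -0.54 and -0.54, a mean of -0.49 ± 0.09 and rank 35 from the most negative of 1176. Between them lay adipose tissue at -0.26 ± 0.04, lymph tissue at -0.15 ± 0.12, liver at -0.13 ± 0.04, mammary gland at -0.11 ± 0.04, ileum at -0.09 ± 0.02 and thymus at -0.08 ± 0.15. The adrenal gap to thymus (0.29) and the spleen gap to adipose tissue (0.23) exceeded the SD over spots, and no step in between did. The 2 control arrays gave -0.17 ± 0.08 and -0.08 ± 0.06 for this clone, on the same side as most tissues and as large as the values from lymph tissue to thymus.

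The 6 genes did not share a pattern. Their ranges over the tissues were 1.11 for SLC1A5, 1.03 for SLC22A4, 0.90 for SLC28A1, 0.77 for SLC3A2, 0.70 for SLC37A3 and 0.67 for SLC39A8, each wider than the median of 0.55 over 1154 features. They were chosen with tissue values known, so this describes the choice. Spleen placed SLC1A5 (0.38) and SLC37A3 (-0.49) on opposite sides, and mammary gland did so with SLC22A4 (1.00) and SLC28A1 (-0.49). Of the 5 genes with a value on both control arrays, 3 lay farther from 0 than on either of them in ileum (45.2% of features) and 3 in spleen (32.2%). In adrenal tissue, liver, lymph tissue and mammary gland 2 of 5 did (16.6%, 21.4%, 32.0% and 28.2%), and in adipose tissue and thymus 1 of 5 (15.2% and 30.2%). Counts over 5 genes are too small to be read apart from these background shares. They also lean on control array 2, where the spots of a clone hardly agreed.

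**Figure D2:**
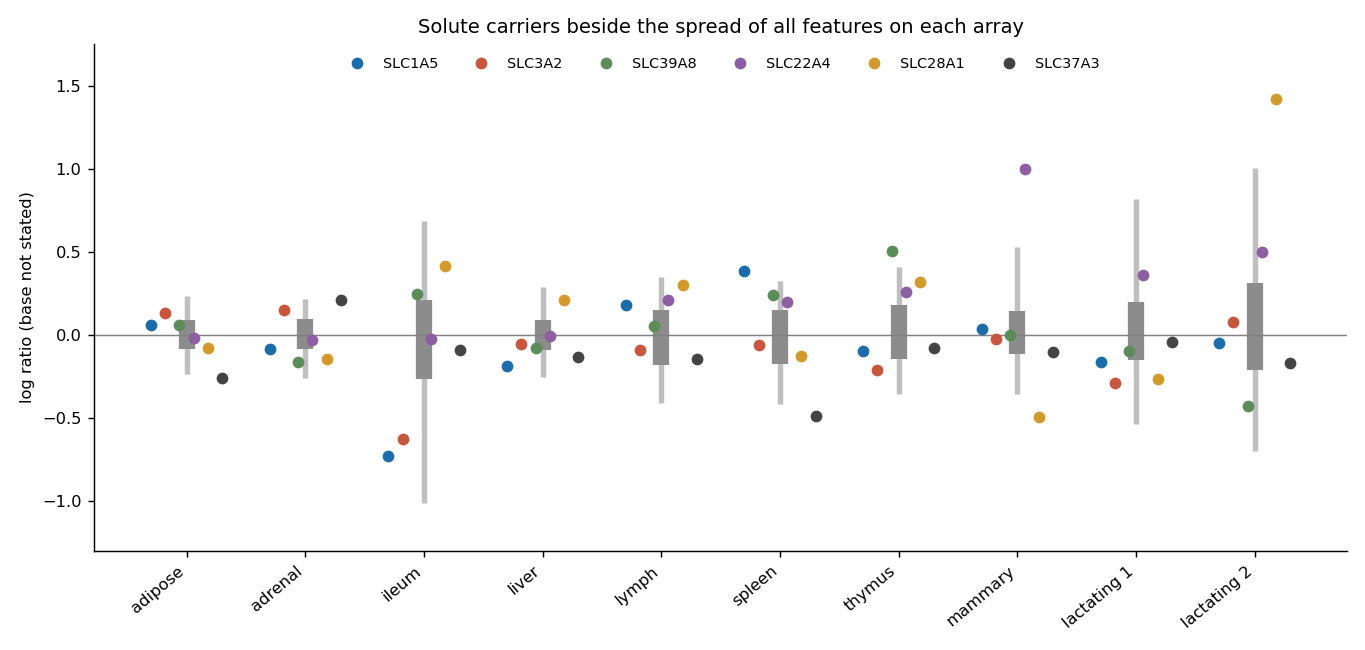
Log ratio (base not stated) of the 6 solute carriers (coloured points) on the 8 tissue and the 2 lactating arrays. Pale bars span the 5th to 95th percentile and dark bars the 25th to 75th percentile of all features on that array. SLC1A5 and SLC3A2 lie inside the pale bar in ileum, while SLC22A4 lies above it in mammary gland, SLC39A8 in thymus, SLC1A5 in spleen and SLC28A1 on lactating array 2. SLC37A3 lies below it in spleen and adipose tissue, and SLC28A1 in mammary gland.

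In lactating against prepubertal mammary gland none of the 6 carriers passed the test. The mean of the 2 arrays was set against 0 with limma and Benjamini-Hochberg adjustment over 1167 features, and 0 of 6 had an adjusted p under 0.05, where 11.7% of all features did (136, of which 97, or 71.3%, lay on the casein side). That split was 48.1% without centring and 88.2% with arrays scaled to the same MAD. At an unadjusted p under 0.05 there was 1 of the 6, SLC22A4, and 310 of 1167 features (26.6%), and 2 of the 6 when genes in place of features were fitted. Without centring that 1 gene was SLC39A8 (-0.36, unadjusted p = 0.0418 by limma) and no longer SLC22A4 (unadjusted p = 0.0555 by limma). The median of the 6 means was -0.11, with 2 positive and 4 negative, against a median of -0.0016 over all features. All calls rest largely on a spread pooled over features, with 9.45 total degrees of freedom of which 8.45 come from the pooling.

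SLC22A4 was nearest to the limit. It read 0.36 on array 1, with spots from 0.30 to 0.43, and 0.50 on array 2, with spots from 0.39 to 0.60. All 6 spots thus lay on the casein side. The mean was 0.43 ± 0.10 (SD, n = 2), with a 95% interval of 0.09 to 0.77 (adjusted p = 0.109, limma). Set against the 2 control arrays, of which array 2 read -0.52, the value was 0.61 (adjusted p = 0.324, limma). The spots of a clone hardly agreed on that control array 2 (mean Spearman rho 0.12), which limits this contrast. With both lactating arrays kept, the adjusted p by limma ran from 0.0722, with genes in place of features, to 0.324, against the control arrays. Without array 1 the value was 0.50, and without array 2 it was 0.36.

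SLC28A1 had the largest mean and the least agreement. It read -0.27 on array 1 (spots 0.17, -0.22 and -0.76) and 1.42 on array 2, where 1 spot read 0.22, another 2.62 and the third had no ratio. The arrays lay on opposite sides, and 1 spot made up most of the positive value. On array 2 it was the 1 of 6 genes at 1 log unit or more from 0, where 7.26% of features were, and on array 1 there were 0 of 6 (4.78%). The mean was 0.57 ± 1.19 (SD, n = 2; adjusted p = 0.291, limma). With both lactating arrays kept, the adjusted p by limma ran from 0.171, with genes in place of features, to 0.632, with a robust prior. Without array 1 the value was 1.42, and without array 2 it was -0.27. The spread in those fits came from the reference against reference arrays, where this clone read -0.12 and 0.05, and not from lactating arrays.

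The remaining 4 genes had negative means, on the side opposite to casein, with 95% intervals that reach across 0. SLC39A8 read -0.10 and -0.43, a mean of -0.27 ± 0.23 (SD, n = 2; interval -0.63 to 0.09, adjusted p = 0.348, limma). SLC1A5 read -0.16 and -0.05 (mean -0.11 ± 0.08, interval -0.45 to 0.24, adjusted p = 0.733 by limma). For the metal importer and the glutamine exchanger, 2 arrays could not tell differences within those intervals from 0. SLC3A2 read -0.29 on array 1 and 0.08 on array 2, so the arrays differed in side (mean -0.11 ± 0.26, interval -0.47 to 0.26, adjusted p = 0.752 by limma). SLC37A3 read -0.04 and -0.17 (mean -0.11 ± 0.09, interval -0.45 to 0.23, adjusted p = 0.726 by limma), close to its values on the control arrays.

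**Figure D3:**
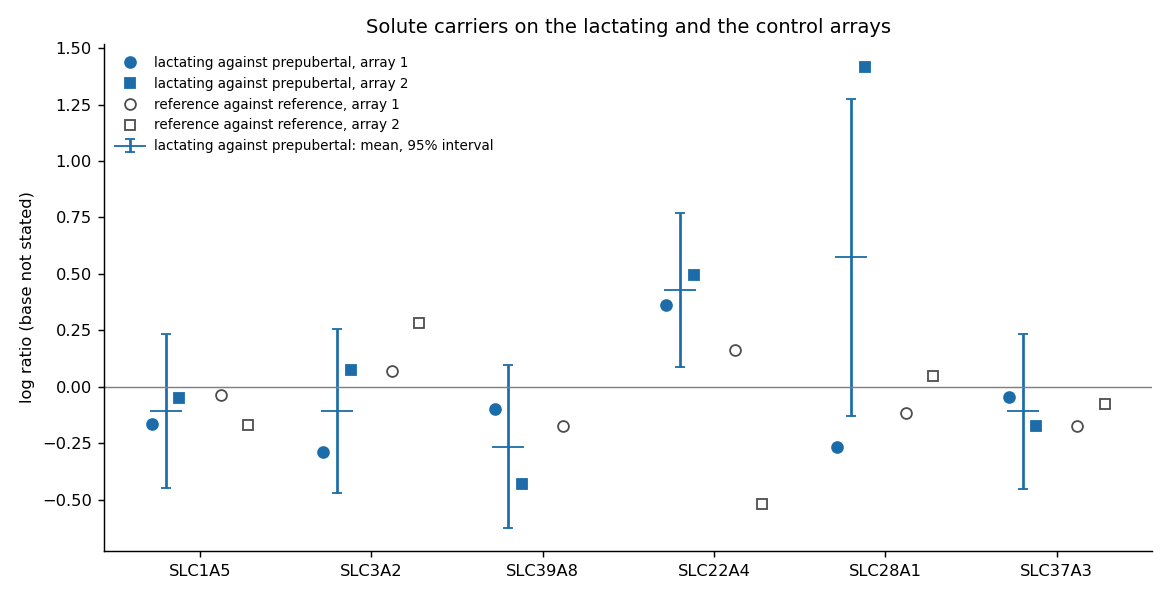
Log ratio (base not stated) of each solute carrier on the lactating against prepubertal arrays (filled symbols, with the mean and its 95% interval from limma) and on the reference against reference arrays (open symbols; SLC39A8 has a value on array 1 only). The interval of SLC22A4 (0.09 to 0.77) lies above 0 before adjustment, and the arrays of SLC28A1 lie apart at -0.27 and 1.42.

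On the array of postpubertal and prepubertal gland 0 features lay 1 unit or more from 0, and the 3 spots of a clone hardly agreed, with a mean Spearman rho of 0.06. SLC3A2 read 0.37 ± 0.12 from 2 spots and SLC1A5 -0.29 ± 0.05 from 3, the widest of the 6. SLC22A4 read 0.26 ± 0.36 from 2 spots, SLC39A8 0.13 ± 0.11, SLC28A1 0.06 ± 0.67 and SLC37A3 -0.03 ± 0.17. The amino acid carriers thus lay on opposite sides here, unlike in ileum.

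The 10 other solute carrier genes gave 11 features, and 0 of 11 passed in lactating against prepubertal gland by limma, where 11.7% of all features did, 5 with a positive and 6 with a negative mean, with a median of -0.01. The one of 11 below an unadjusted p of 0.05, where 26.6% of all features were, was SLC37A1, a relative of SLC37A3, at -0.37 ± 0.15 (SD, n = 2; adjusted p = 0.166, limma). SLC37A2 lay at 0.36 ± 0.24, the choline transporter family member SLC44A2 at -0.34 ± 0.36 and the copper importer SLC31A1 at 0.33 ± 0.25. These are the 4 with the largest means on either side.

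3 of the 6 genes had relatives of their family among the features, 6 clones in all, of which 2 gave a positive and 4 a negative r with their relative over the tissues. They are named as relatives, after their values were seen. SLC39A8 was most positive in thymus (0.51 ± 0.12), where SLC39A11, another metal carrier of the SLC39 family, had its most negative value (-0.41 ± 0.14). SLC39A11 also lay at -0.34 ± 0.01 in lymph tissue and -0.34 ± 0.08 in mammary gland, so its lowest tissue was not resolved by the spots. Pearson's r between them was -0.42 over 8 arrays. SLC28A3, a nucleoside carrier of broader cargo, was printed as 2 clones that differed from each other, at -0.41 ± 0.06 and -0.03 ± 0.06 in adrenal tissue and at -0.09 ± 0.20 and 0.34 ± 0.19 in mammary gland. With SLC28A1 they gave an r of 0.45 and of -0.47. Which of these clones stands for the gene cannot be read from these values.

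In the SLC37 family, SLC37A3 lay at -0.11 ± 0.04 in mammary gland, where SLC37A4, the glucose 6-phosphate carrier of the endoplasmic reticulum, was most positive at 0.39 ± 0.01. SLC37A2 was most positive in lymph tissue (0.44 ± 0.09) and most negative in adrenal tissue (-0.25 ± 0.12), the tissue where SLC37A3 was most positive. Neither end was resolved by the spots, with thymus at 0.32 ± 0.39 and ileum at -0.16 ± 0.46. On reference against reference arrays 1 and 2 the SLC37A2 clone read -0.01 ± 0.15 and -1.11 ± 0.36. SLC37A1 moved within a narrow band from -0.02 to 0.21. Their r with SLC37A3 over 8 arrays was 0.32 for SLC37A4, -0.45 for SLC37A2 and -0.10 for SLC37A1. All these points share the reference line and the print.

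**Figure D4:**
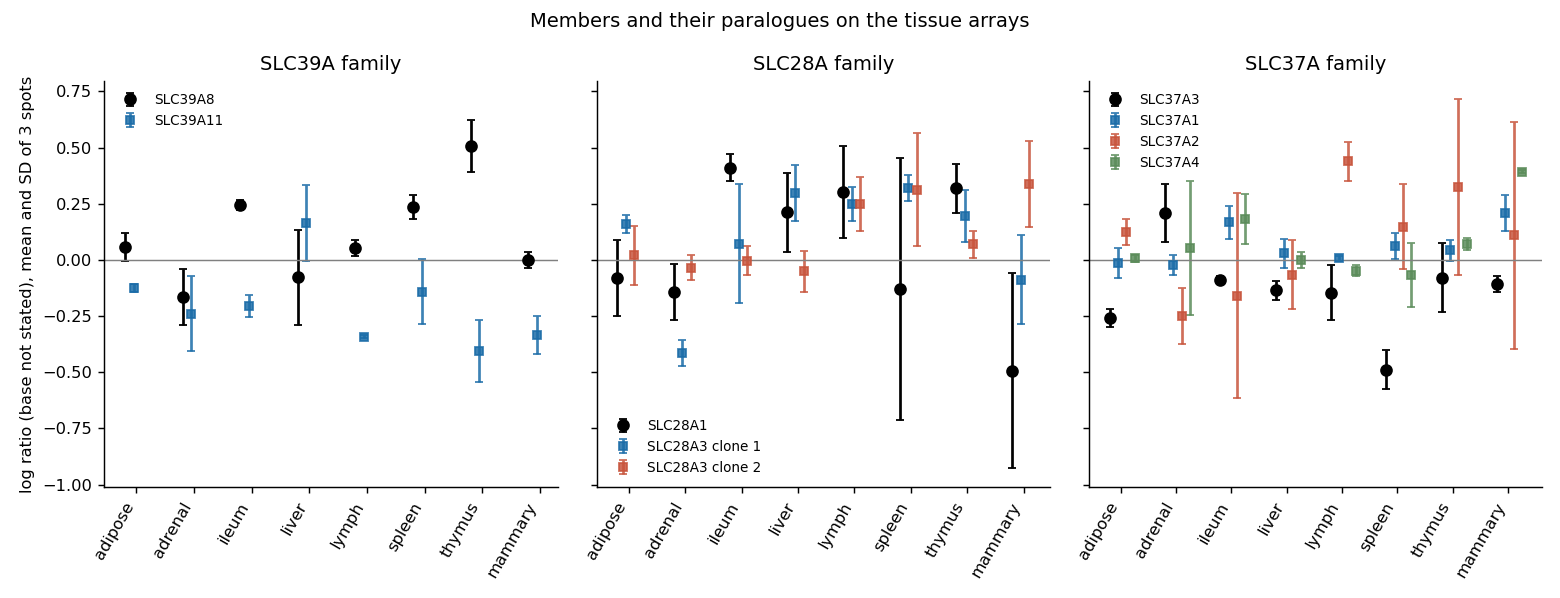
Log ratio (base not stated; mean and SD over 3 spots) of SLC39A8, SLC28A1 and SLC37A3 (black circles) and of their relatives (coloured squares) on the 8 tissue arrays. SLC39A8 (0.51) and SLC39A11 (-0.41) lie on opposite sides in thymus, and SLC37A3 (-0.11) lies below SLC37A4 (0.39) in mammary gland. SLC39A11 is nearly as low in lymph tissue and mammary gland (-0.34 in each).

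Genes that handle the same cargo were few on this platform, and their calls on the lactating arrays are to be read beside the 11.7% of all features called. For amino acid use 1 of 11 features passed, the cysteine dioxygenase gene CDO1 with a positive mean of 2.20 ± 0.39, and 0 passed with a negative one. The aminoacyl-tRNA synthetase genes HARS1 (-0.40 ± 0.01), GARS1 (0.36 ± 0.21) and QARS1 (-0.33 ± 0.05) followed by size and did not pass. For carnitine and fatty acid oxidation 0 of 7 features of 5 genes passed. CPT2, the inner carnitine palmitoyltransferase, gave 0.56 ± 0.24 (adjusted p = 0.0523, limma) and 0.20 ± 0.06 from its 2 clones, and the carnitine acetyltransferase CRAT -0.51 ± 0.34 and -0.26 ± 0.47. For nucleosides 0 of 2 passed (NT5C2 at 0.42 ± 0.20, HPRT1 at 0.05 ± 0.03), for sugar phosphates 0 of 2 (PGM1 at 0.20 ± 0.08, ALDOC at -0.18 ± 0.07) and for metals 0 of 1 (LTF at 0.19 ± 0.04). Of the 7 features listed as other membrane transporters, a list that also took in ABCE1 (-0.02 ± 0.96), 2 passed. They were the fatty acid carrier CD36 at 1.01 ± 0.22 and, on the opposite side, the major facilitator family member MFSD14B at -0.87 ± 0.24. TAP1 (0.40 ± 0.10) and SCARB2 (-0.42 ± 0.50) did not pass.

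For each carrier the genes with the most similar values over the 8 tissue arrays were taken from 694 others, by Pearson's r, as a description. SLC22A4 was most like BDH2 (r = 0.99), IDI1 (0.97) and TEAD3 (0.97), and without ileum their r was 0.99, 0.98 and 0.97. Mammary gland, where BDH2 was at 0.79, IDI1 at 0.97 and TEAD3 at 0.96, is the array these genes share. The mammary array was not left out, so the r without ileum does not test its part. By Spearman's rho 1 of these 3 genes remained among the first 3. SLC39A8 was most like EXOC4 (0.97), PABPN1 (0.94) and DDX39A (0.93), which were also its 3 most similar genes over the 7 arrays without ileum. SLC3A2 was most like CLINT1 (0.98), PRPF8 (0.96) and CTNNAL1 (0.96), of which only CLINT1 remained among the first 3 without ileum (r = 0.93).

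The other likenesses were looser. SLC1A5 went with AHCY (0.93), COA4 (0.93) and CACYBP (0.91), whose r without ileum was 0.74, 0.73 and 0.72. SLC37A3 went with PTPN2 (0.89), NBN (0.88) and BET1 (0.86). SLC28A1, whose spots agreed least, reached 0.83 with FBXO3 and with BIRC6 and 0.78 with ERCC3. These values describe 8 arrays that share the reference line.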

How the data were processed

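Total RNA was hybridised to 13 two-channel arrays of a bovine mammary cDNA platform, per the labels. The authors deposited 1 log ratio per spot (3888 spots); the sources used here do not give its background correction, normalization, log base or channel order. The members and lists were chosen with earlier results of these data known. Spots at exact 0 (124 to 373 on an array) were taken as missing, each array was centred on its median, and spots of 1 sequence were averaged (at least 2 spots, value on at least 7 arrays), leaving 1179 features. Symbols came from the platform annotation, and RefSeq gene identifiers of assembly ARS-UCD2.0 gave the same symbol for 6 of 6 genes. No sequence or coordinate was used. Intensities were not used here, so the number of arrays limits the precision. The lactating arrays were tested with limma 3.58.1 in R 4.3.3 (lmFit, eBayes, two-sided, Benjamini-Hochberg over all features), checked on simulated data. With 1 lactating array left out, the spread came from the reference against reference arrays. Named were the 6 genes in full, up to 4 genes of each list by the size of their lactating mean, and the 3 genes most like each carrier. Alternatives were no centring, exact 0 kept, the median of spots, 1 spot per feature, scaling to the same MAD, genes in place of features, a contrast with the control arrays, a robust prior, and each lactating array left out. Leaving ileum out of the tissue ranges was added after seeing the data. Other steps used scipy 1.17.1, pandas 2.3.3 and numpy 2.4.6 under Python 3.11.15.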

Additional observations from a re-analysis of the deposited data

How the results depend on the processing

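Against 136 features called in lactating against prepubertal gland, 26 were called with exact 0 kept, 51 with arrays scaled to the same MAD, 20 when set against the 2 control arrays, and 13 to 40 with 1 lactating array left out. Of the 6 carriers 0 were called in each of these settings. For fits with 1 lactating array left out only values are given, since their spread came from the reference against reference arrays. With 1 array left out SLC28A1 ran from -0.27 to 1.42 and SLC3A2 from -0.29 to 0.075, and set against the control arrays SLC37A3 was at 0.017, SLC1A5 at -0.0028 and SLC3A2 at -0.28. SLC39A8 had no value where reference against reference array 2 enters the fit. Without ileum the tissue range was 0.57 for SLC1A5 and 0.36 for SLC3A2, and scaling to the same MAD gave 0.88 for SLC1A5. The tissue at the end changed for SLC3A2 (adipose tissue most positive after scaling), SLC39A8 (liver most negative with the median of spots) and SLC28A1 (lymph tissue with the median of spots, liver after scaling). The likeness of SLC1A5 depended most on the choice, with 0 of its 3 genes kept without ileum and 0 by Spearman's rho. In that order 0 and 1 were kept for SLC28A1, 1 and 0 for SLC37A3 and 1 and 2 for SLC3A2. For SLC22A4 2 and 1 were kept, and for SLC39A8 3 and 2. Each lactating log ratio already sets the 2 RNAs of its array against each other, and the lactating result is the mean of these ratios against 0. No further pairing was made, and the lactating arrays carry no replicate numbers in the labels. The cause of these shifts was not tested.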
